A study of Homo sapiens with 6 samples.

Results

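The 48 genes whose symbols name proteasome subunits, activators, inhibitor and assembly chaperones were taken from the 53712 gene names of the deposited count table by the form of the symbol (PSM followed by A, B, C, D, E or G and a number, or PSMF1). Of these, 18 encode the core particle and 17 the regulatory particle, and the other 13 are chaperones, activators, the inhibitor and an alternative alpha subunit. The cells were H9, an established line of human embryonic stem cells kept in RSeT, a medium for naive-type cells, and each library was prepared from 200 ng of RNA by poly(A) selection with a kit that marks the strand. Starting 24 h after passage, all cells received 10 nM DZNep, an S-adenosylhomocysteine hydrolase inhibitor, together with TSA (trichostatin A) at 5 nM, which blocks histone deacetylases. On top of these, 3 libraries came from cells given UNC1999, which blocks the histone methyltransferases EZH2 and EZH1, and 3 from cells given UNC2400, a weakly active analog with added N-methyl groups, each at 2.5 µM for 48 h. No group was without both compounds, so each difference is one between the compounds on top of DZNep and TSA in 1 cell line. The labels do not say that replicates were separate cultures, and p-values therefore reflect the spread among libraries, part of which may be technical.

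The proteasome degrades proteins that carry ubiquitin chains. Its core particle is a barrel of stacked rings: outer rings of alpha subunits guard the entrance, and inner rings of beta subunits hold the peptide-cutting sites. The regulatory particle sits on the barrel's end, where its non-ATPase subunits bind and remove ubiquitin and its ring of ATPases unfolds the substrate. Interferon signalling can exchange the catalytic beta subunits for inducible ones (the immunoproteasome), and alternative activators can replace the regulatory particle.

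Libraries held 29699441 to 42345448 counts with UNC2400 and 33522942 to 34481593 with UNC1999. On the first principal component of log2 CPM (counts scaled to the size of the library), which held 67.8% of the variance, UNC1999 replicate 1 lay at 20.1, apart from the other UNC1999 libraries at 39.3 and 41.4 and nearer to the UNC2400 libraries at -35.2 to -31.6. All 5 markers of human pluripotent cells (POU5F1, NANOG, SOX2, LIN28A, DNMT3B) were above 1 CPM. Their summed level was 6615 to 6741 CPM with UNC2400 and 4446 to 5212 CPM with UNC1999. DNMT3B, the most abundant with UNC2400, fell from a mean of 2498 CPM to 1202 CPM. By edgeR's test its log2 fold change was -1.06, and POU5F1 (-0.44) and NANOG (-0.14) were also lower. LIN28A (-0.15) and SOX2 (-0.00672) did not pass. In a fit with offsets for gene length and GC content, described below, all 5 were lower. Of 5 naive-type markers, 4 were above 1 CPM and KLF17 was not. Their sums overlapped (172 to 185 CPM and 174 to 188 CPM), while the 4 tested genes moved in both directions by edgeR's test: DPPA5, the most abundant, fell by 0.28 on the log2 scale, and DNMT3L, KLF4 and DPPA3 rose by 1.73, 0.62 and 0.40. Of 7 fibroblast or feeder markers, 3 were above 1 CPM (COL1A1, COL1A2, THY1), with sums of 264 to 296 CPM and 177 to 194 CPM, while LUM, DCN and COL3A1 were near 0. PDGFRB, at 0.189 CPM and 0.508 CPM, had a log2 fold change of 1.42 (edgeR adjusted p = 0.0440). Summed trophoblast markers were 48.5 to 50.5 CPM and 51.3 to 53.4 CPM, with 2 of 5 above 1 CPM and CGB5 at 0 in all libraries. Summed endoderm markers were 1.39 to 2.20 CPM and 0.884 to 0.995 CPM, with 1 of 3 above 1 CPM, AFP. Summed neural markers (1.09 to 1.53 CPM and 1.33 to 1.76 CPM) and white blood cell markers (0.335 to 0.764 CPM and 0.319 to 0.483 CPM) overlapped between the groups. The part of these marker differences in the values of the proteasome genes was not tested.

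Most proteasome genes differed by small amounts between the compounds, and how many passed the test depended on the model. Of the 46 tested by edgeR's quasi-likelihood test, 8 were higher with UNC1999 (PSMB2, PSMB5, PSMB8, PSMC2, PSMC3, PSMC6, PSMD4 and PSMG3), 4 were lower (PSMD1, PSMD2, PSME3 and PSME4) and 34 did not pass an adjusted p of 0.05. Thus 26.1% passed, while 52.7% of all 17596 tested genes did (26.8% higher and 25.9% lower). The members are abundant, and among genes with a mean log2 CPM of 6 to 9 the share was 64.6% of all genes (23% higher and 41.6% lower) and 29.4% of the 34 members in that range. The median size of the log2 fold change, whatever its sign, was 0.10 for the members, 0.28 for all tested genes and 0.19 for genes in that range. A size above 0.5 was seen in 3 members (PSMD1, PSME4 and PSMB8), or 6.52%, against 26.0% of all genes and 10.6% of genes in that range.

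The lower share of calls was not seen in a fit with offsets for genomic span, exon length and GC content. There 4 members were higher and 18 lower, or 47.8% in all, against 48.3% of all genes (23.6% higher and 24.7% lower). In the range of log2 CPM from 6 to 9 the share was 50% of the members and 58.9% of all genes. By direction, 14 of the 34 members in that range were lower and 3 higher. Of all 3341 genes in that range, 1390 were lower and 579 higher. The median size was 0.15 for the members and 0.25 for all genes in that fit. A size above 0.5 was seen in 0 members, against 22.6% of all genes and 8.14% of genes in that range. In bulk RNA, fewer cells of a type and less RNA per cell cannot be told apart.

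**Figure D1:**
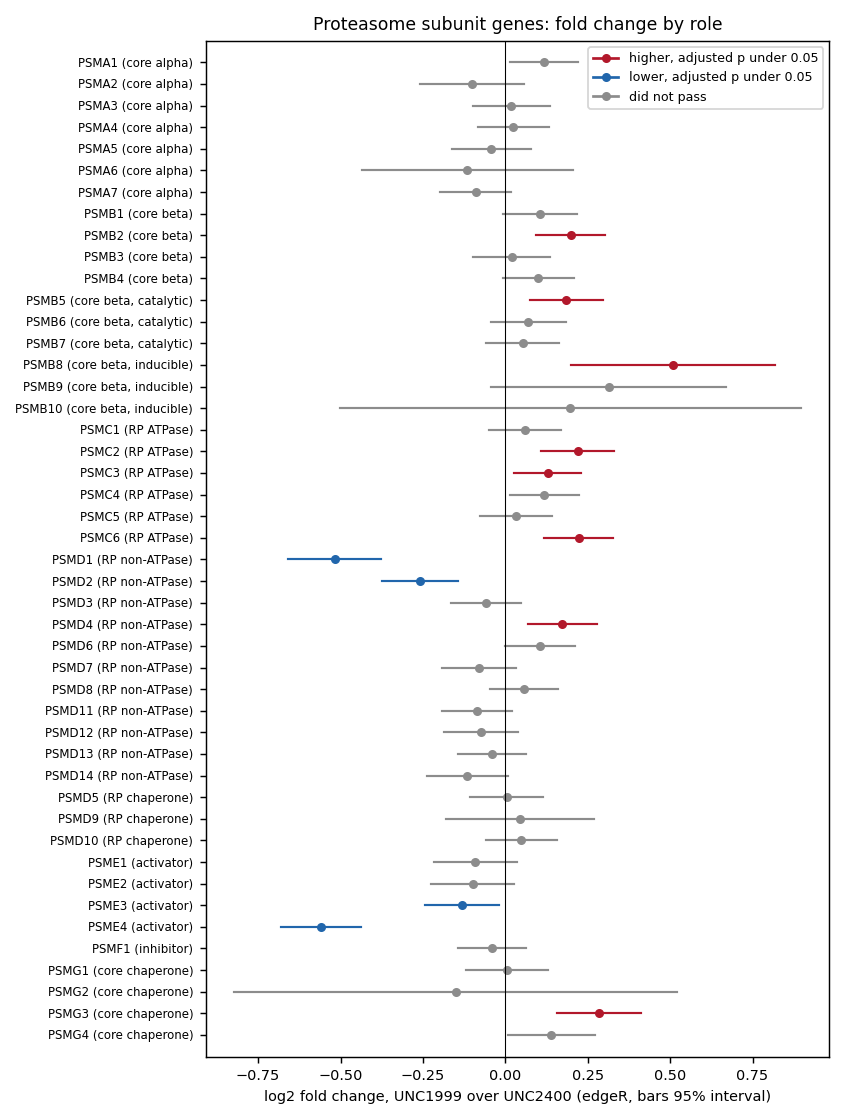
Log2 fold change (UNC1999 over UNC2400) of the 46 tested proteasome genes on the horizontal axis, by role, with 95% intervals from edgeR over 3 libraries per group; RP stands for regulatory particle. PSME4 (-0.56) and PSMD1 (-0.52) lie farthest to the left and PSMB8 (0.51) farthest to the right, while most other genes lie near 0.

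In 13 members every UNC1999 library was above every UNC2400 library and in 6 every one was below, against 30.9% and 29.7% of all tested genes. The other 27 tested members overlapped. Of the members that did not pass, 28 had a mean of at least 20 CPM, and their 95% intervals ran from -0.24 (lower end, PSMD14) to 0.27 (upper end, PSMG4) on the log2 scale. The number of calls depended on single libraries and on scaling. Without UNC1999 replicate 1, 8 members were lower. Without UNC1999 replicate 3, 4 were higher. Upper-quartile scaling gave 14 higher and 4 lower.

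Promoters are shown for PSMD1 and PSME4, the members with the largest falls, and for PSMC2 and PSMC6, the ATPases with the largest rises. The 250 bases before each gene start are printed 5′ to 3′ on the gene's strand, from RefSeq on GRCh38.p14. Capitals mark matches on either strand to an antioxidant response element core (TGACNNNGC), a CCAAT box (CCAAT), an ETS core (CCGGAAG) or a GC box (GGGCGG), which can overlap each other. The intervals are chr2:231056617-231056866 (plus strand) for PSMD1, chr2:53970994-53971243 (minus strand) for PSME4, chr7:103347393-103347642 (plus strand) for PSMC2 and chr14:52706950-52707199 (plus strand) for PSMC6.
PSMD1: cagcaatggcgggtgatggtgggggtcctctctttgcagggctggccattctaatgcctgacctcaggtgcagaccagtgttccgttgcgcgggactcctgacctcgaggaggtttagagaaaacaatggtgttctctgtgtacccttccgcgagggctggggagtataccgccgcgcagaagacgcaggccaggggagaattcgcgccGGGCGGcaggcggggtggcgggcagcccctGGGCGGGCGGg
PSME4: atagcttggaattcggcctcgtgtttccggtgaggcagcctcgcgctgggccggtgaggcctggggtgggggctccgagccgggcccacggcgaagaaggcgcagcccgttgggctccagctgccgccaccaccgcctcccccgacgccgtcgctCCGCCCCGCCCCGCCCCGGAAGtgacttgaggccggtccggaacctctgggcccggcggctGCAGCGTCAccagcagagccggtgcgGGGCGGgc
PSMC2: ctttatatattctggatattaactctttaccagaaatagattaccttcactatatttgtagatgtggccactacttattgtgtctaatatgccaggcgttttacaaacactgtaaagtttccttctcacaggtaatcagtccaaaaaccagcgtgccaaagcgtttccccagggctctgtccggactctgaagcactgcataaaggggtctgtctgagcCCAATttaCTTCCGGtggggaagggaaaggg
PSMC6: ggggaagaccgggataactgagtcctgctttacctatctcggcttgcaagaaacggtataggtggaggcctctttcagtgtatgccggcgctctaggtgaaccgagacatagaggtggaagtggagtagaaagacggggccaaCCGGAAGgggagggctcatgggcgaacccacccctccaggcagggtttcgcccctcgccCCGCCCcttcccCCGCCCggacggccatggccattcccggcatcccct
PSMD1 has 3 GC box matches here, and its antioxidant response element core starts at base 40 after the gene start, outside the printed bases. PSME4 has 4 GC box matches, 1 ETS core and 1 antioxidant response element core. PSMC2 has 1 CCAAT box and 1 ETS core, and another ETS core starts at base 10 after its gene start, outside the printed bases. PSMC6 has 1 ETS core and 2 GC boxes.

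The antioxidant response element is the motif to which NFE2L1 and NFE2L2, factors known to drive proteasome genes, bind with small MAF proteins. In windows of 300 bases (250 before to 50 after the start), TGACNNNGC matched in 15 of 51 windows of 42 members, or 29.4%, and in 13.3% of all 34943 windows. PSMA7, PSMB1, PSMB6, PSMB7, PSMD4 and PSMG3 had no window and were not searched. CCGGAAG matched in 29.4% of member windows and 10.2% of all windows. GGGCGG matched in 68.6% and 44.9%, and CCAAT in 39.2% and 34.6%. The other 4 motifs searched matched in 3 (NRF1 core, GCATGCG), 6 (YY1 core, ATGGCGG), 3 (E-box, CACGTG) and 0 (cAMP response element, TGACGTCA) of the 51 windows, against 3.88%, 5.55%, 7.23% and 1.84% of all windows. Of the 42 genes with a window, 6 were higher and 4 lower. Of the 15 genes with TGACNNNGC, 0 were higher and 2 lower (PSMD1 and PSME4). The numbers were 4 higher and 1 lower of 20 for CCAAT, 2 and 1 of 15 for CCGGAAG, and 3 and 3 of 29 for GGGCGG. A match is a description of letters and not a bound site.

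Among core particle genes, none of the 7 alpha ring genes (PSMA1 to PSMA7) passed in edgeR's test or in DESeq2, and limma-voom called 1, as did an unadjusted p under 0.05 (1 higher, 0 lower). Their median log2 fold change was -0.04. PSMA1 had 0.12 ± 0.05 (SE; edgeR adjusted p = 0.0533), and PSMA7 had -0.09 ± 0.05 (edgeR adjusted p = 0.146). In both of them the libraries of the groups did not overlap. PSMA1 passed in 5 of 14 alternatives. With the offsets, 4 of the 7 passed: PSMA1 was higher (0.24; edgeR adjusted p = 0.000821), and PSMA2 (-0.27), PSMA4 (-0.16) and PSMA7 (-0.34) were lower. PSMA7 was also lower without UNC1999 replicate 1 (-0.13; edgeR adjusted p = 0.0402).

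The beta subunits all had values above 0: the log2 fold changes of the 10 tested ran from 0.02 (PSMB3) to 0.51 (PSMB8), with a median of 0.15. Of these, 3 were higher, 1 of them constitutive and non-catalytic (PSMB2), 1 constitutive and catalytic (PSMB5) and 1 inducible (PSMB8). With the offsets, PSMB3 (-0.15), PSMB4 (-0.22) and PSMB6 (-0.20) passed as lower, PSMB1 and PSMB10 had values below 0, and PSMB2 stayed higher (0.15). PSMB2 rose from 162 ± 4.88 CPM to 186 ± 5.17 CPM (SD, n = 3 each), or 0.20 ± 0.05 on the log2 scale (edgeR adjusted p = 0.00308). Without the offsets, no beta gene was lower by edgeR, DESeq2, limma-voom or at an unadjusted p under 0.05.

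The catalytic subunits PSMB5, PSMB6 and PSMB7 carry the chymotrypsin-like, caspase-like and trypsin-like activities. PSMB5 stood at 113, 122 and 115 CPM in UNC2400 replicates 1 to 3 and at 134, 127 and 138 CPM in UNC1999 replicates 1 to 3. Every UNC1999 library was above every UNC2400 library, and the log2 fold change was 0.19 ± 0.05 (edgeR adjusted p = 0.00676). PSMB6 stood at 134, 141 and 140.3 CPM and at 149.9, 135 and 150.1 CPM. The groups overlapped, since UNC1999 replicate 2 was below UNC2400 replicates 2 and 3 (0.07 ± 0.05; edgeR adjusted p = 0.297). PSMB7 stood at 199, 211 and 213 CPM and at 214.5, 206 and 225 CPM. Its groups overlapped too (0.05 ± 0.05; edgeR adjusted p = 0.423).

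The inducible subunits PSMB8, PSMB9 and PSMB10 were scarce. PSMB8, the counterpart of PSMB5, stood at 4.65, 7.52 and 7.42 CPM with UNC2400 and at 8.24, 10.3 and 9.52 CPM with UNC1999. All UNC1999 libraries were above all UNC2400 libraries, of which replicate 1 was the lowest. The mean rose from 6.53 ± 1.63 CPM to 9.37 ± 1.06 CPM (SD, n = 3 each), or 0.51 ± 0.15 on the log2 scale (edgeR adjusted p = 0.00762). Without UNC2400 replicate 1 the value was 0.32 (edgeR adjusted p = 0.0425), without UNC1999 replicate 2 it was 0.42 (0.0501), and with the offsets it was 0.23 (0.160). PSMB9, the counterpart of PSMB6, stood at 2.43, 2.08 and 1.99 CPM and at 2.38, 2.73 and 2.95 CPM. One UNC1999 library lay below the highest UNC2400 library (0.31 ± 0.17; edgeR adjusted p = 0.130). PSMB10, the counterpart of PSMB7, stood at 0.590, 0.551 and 0.497 CPM and at 0.667, 0.824 and 0.383 CPM, and the groups overlapped. Its summed counts were 55 and 65, a ratio of 1.15 with an exact 95% interval of 0.790 to 1.68 that covers counting error only.

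PSMB11, the beta subunit of thymic cells, had 0 counts in all 6 libraries. A count of 0 allows up to 3 counts, or 0.0709 to 0.101 CPM per library. PSMA8, an alpha subunit known from testis, had 15 counts with UNC2400 and 12 with UNC1999 (ratio 0.778, exact 95% interval 0.333 to 1.78, for counting error only). It stood at 0.243, 0.120 and 0.0994 CPM and at 0.0290, 0.199 and 0.118 CPM, with overlap. Both genes were below the low-count filter and were not tested.

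In the regulatory particle, all 6 ATPases (PSMC1 to PSMC6) had log2 fold changes above 0, from 0.03 (PSMC5) to 0.22 (PSMC6), with a median of 0.12, and 3 were higher. PSMC6 stood at 117, 125 and 123 CPM with UNC2400 and at 141, 139 and 145 CPM with UNC1999. The groups did not overlap. The mean rose from 121 ± 4.05 CPM to 142 ± 3.22 CPM (SD, n = 3 each), or 0.22 ± 0.05 on the log2 scale (edgeR adjusted p = 0.00117). PSMC2 rose by 0.22 ± 0.05 (edgeR adjusted p = 0.00201). PSMC3 rose by 0.13 ± 0.05 (edgeR adjusted p = 0.0334), a call that was lost in 8 of 14 alternatives and turned below 0 in 1. With the offsets, PSMC6 stayed higher (0.14), PSMC5 was lower (-0.26; edgeR adjusted p = 0.00203), and PSMC1, PSMC3 and PSMC4 had values below 0 without passing.

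Of the 11 non-ATPases, 1 was higher and 2 were lower, and their median log2 fold change was -0.07. PSMD1 and PSMD2 are the large scaffold subunits of the base, the part next to the core particle, that dock ubiquitin receptors and shuttle factors. PSMD1, on chromosome 2, stood at 494, 505 and 512 CPM with UNC2400 and at 391, 315 and 349.8 CPM with UNC1999. The groups were far apart, and UNC1999 replicate 1 was the nearest to UNC2400. The mean fell from 504 ± 9.39 CPM to 352 ± 38.4 CPM (SD, n = 3 each), or -0.52 ± 0.07 on the log2 scale (edgeR adjusted p = 6.88e-06). PSMD2, on chromosome 3, stood at 462, 454 and 469 CPM and at 399.8, 362 and 396 CPM. No UNC1999 library reached the UNC2400 range. PSMD2 fell by 0.26 ± 0.05 on the log2 scale (edgeR adjusted p = 0.000725). Both calls held in all 14 alternatives.

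PSMD4, a ubiquitin receptor, rose from 202 ± 2.43 CPM to 227 ± 7.97 CPM (SD, n = 3 each), or 0.17 ± 0.05 on the log2 scale (edgeR adjusted p = 0.00747), and had a value of -0.01 with the offsets. The 8 lid subunits (PSMD3, PSMD6, PSMD7, PSMD8, PSMD11, PSMD12, PSMD13 and PSMD14) include PSMD14, the enzyme that removes ubiquitin chains from substrates. None of the 8 passed in edgeR without the offsets, DESeq2 or limma-voom, and none had an unadjusted p under 0.05. Their median log2 fold change was -0.07, from -0.12 (PSMD14) to 0.10 (PSMD6). With the offsets, PSMD7 (-0.34), PSMD12 (-0.14) and PSMD13 (-0.18) were lower. PSMD6 was higher with upper-quartile scaling (0.12) and with a stricter low-count filter (0.11), and PSMD7 (-0.14) and PSMD14 (-0.17) were lower without UNC1999 replicate 1. The chaperones that help to assemble the regulatory particle, PSMD5, PSMD9 and PSMD10, had values of 0.00404, 0.04 and 0.05, and none passed by edgeR without the offsets, DESeq2, limma-voom or an unadjusted p under 0.05. With the offsets PSMD10 was lower (-0.22; edgeR adjusted p = 0.00367).

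**Figure D2:**
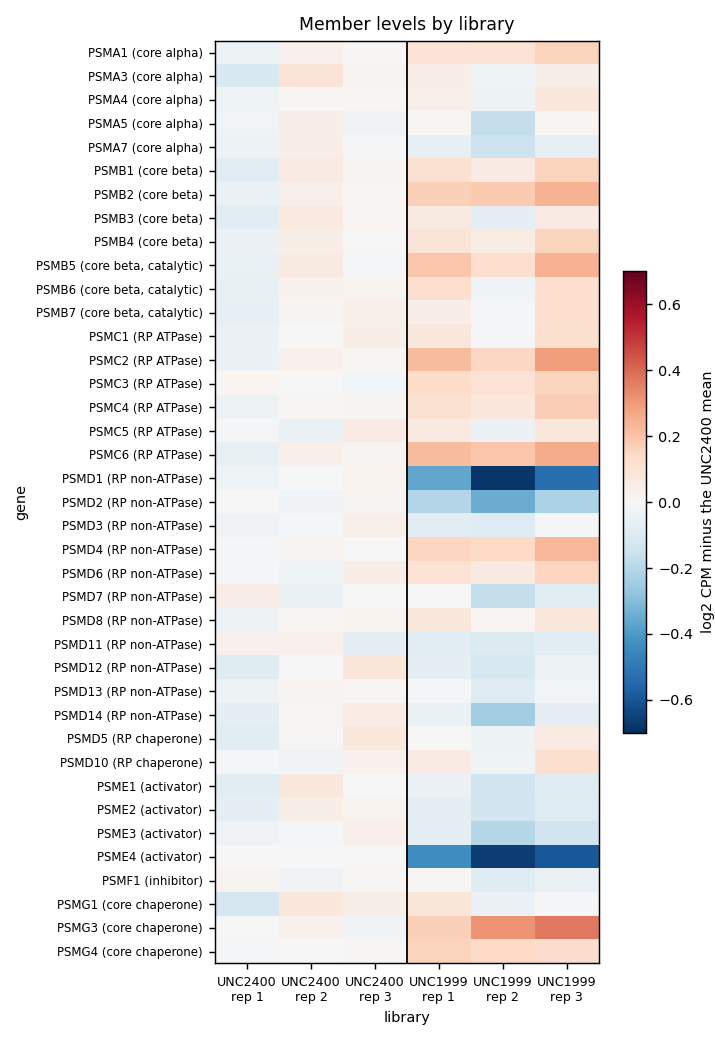
Level of each proteasome gene that had a mean of at least 20 CPM with UNC2400, in each of the 6 libraries, as the log2 difference from its mean over the UNC2400 libraries (colour, blue lower and red higher). PSMD1, PSMD2 and PSME4 are blue in all 3 UNC1999 libraries.

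The particles were compared by the median log2 fold change of their genes, which was 0.07 over the 17 tested core genes (3 higher, 0 lower) and 0.03 over the 17 regulatory genes (4 higher, 2 lower), beside 0.02 over all tested genes. DESeq2, limma-voom and an unadjusted p under 0.05 also gave no lower core gene, while the offsets gave 6. Summed over genes, the core particle stood at 2216, 2366 and 2313 CPM with UNC2400 and at 2410.1, 2300 and 2473 CPM with UNC1999. These overlapped. The regulatory particle stood at 3547, 3600 and 3651 CPM and at 3516, 3289.8 and 3523 CPM, so that each UNC1999 library was below each UNC2400 library. Without PSMD1 and PSMD2, a choice made after seeing their values, the sums were 2590.4, 2641 and 2670.1 CPM and 2725, 2613 and 2777 CPM. These overlapped, and the mean was then higher with UNC1999, at 2705 ± 84.1 CPM against 2634 ± 40.2 CPM (SD, n = 3 each). Sums of CPM weigh long and abundant transcripts more. Which particle separated the groups depended on the scaling. As a percentage of a library's unscaled counts, the core stood at 0.215, 0.233 and 0.228 with UNC2400. With UNC1999 it stood at 0.241, 0.240 and 0.250, with no overlap. The regulatory particle then stood at 0.344, 0.355 and 0.360 and at 0.351, 0.343 and 0.357, with overlap.

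The ratio of the sums, core over regulatory, was 0.625, 0.657 and 0.633 with UNC2400 and 0.685, 0.699 and 0.702 with UNC1999. The groups did not overlap, and the mean ratios were 0.638 ± 0.0168 and 0.696 ± 0.00888 (SD, n = 3 each). Without PSMD1 and PSMD2 the ratios were 0.855, 0.896 and 0.866 and then 0.884, 0.880 and 0.890. These overlapped, with means of 0.873 ± 0.0210 and 0.885 ± 0.00495 (SD, n = 3 each). With the offsets the medians were -0.08 for the core and -0.11 for the regulatory particle, with 2 higher and 6 lower core genes and 1 higher and 6 lower regulatory genes. The regulatory median was -0.00219 without UNC1999 replicate 1 and -0.00532 without UNC1999 replicate 3.

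**Figure D3:**
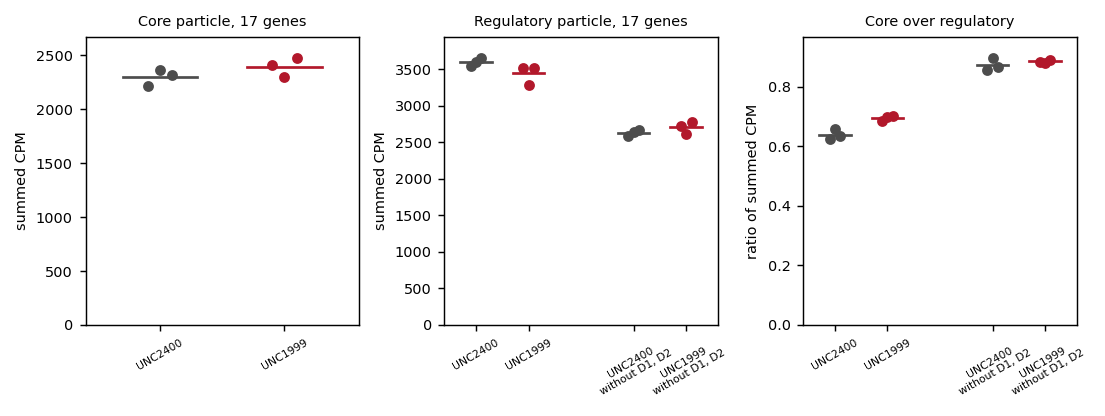
Summed CPM of the core and regulatory particle, and their ratio, in each library (points; lines are group means, n = 3), with and without PSMD1 and PSMD2. The ratio separates the groups with all genes and overlaps without those genes.

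All 4 activators had log2 fold changes below 0, with a median of -0.12, and 2 were lower; none was higher by edgeR, DESeq2, limma-voom or an unadjusted p under 0.05. PSME4 encodes PA200, a large nuclear activator linked to the degradation of acetylated histones. On chromosome 2, it stood at 239.1, 238.6 and 239.6 CPM with UNC2400 and at 177, 151 and 159 CPM with UNC1999. The UNC2400 libraries were nearly equal and all UNC1999 libraries were lower, with replicate 1 the nearest. The mean fell from 239 ± 0.513 CPM to 162 ± 13.2 CPM (SD, n = 3 each), or -0.56 ± 0.06 on the log2 scale (edgeR adjusted p = 6.12e-07). This call held in all 14 alternatives.

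PSME3, the nuclear activator PA28 gamma, fell by 0.13 ± 0.05 on the log2 scale, from 346 ± 8.01 CPM to 316 ± 14.8 CPM (SD, n = 3 each; edgeR adjusted p = 0.0446). That call was lost in 6 of 14 alternatives, with an adjusted p of up to 0.176. PSME1 and PSME2, which form the interferon-inducible activator PA28, had -0.09 ± 0.06 (edgeR adjusted p = 0.210) and -0.10 ± 0.06 (edgeR adjusted p = 0.178). With the offsets all 4 activators were lower. PSMF1, the inhibitor, had -0.04.

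The core-particle chaperones PSMG1 to PSMG4 pair up to build the alpha ring. PSMG3 stood at 35.7, 36.5 and 35.2 CPM with UNC2400 and at 40.2, 44.5 and 46.2 CPM with UNC1999. The groups did not overlap, and the log2 fold change was 0.28 ± 0.06 (edgeR adjusted p = 0.000817), or 0.07 with the offsets. Its partner PSMG4 had 0.14 ± 0.06 (edgeR adjusted p = 0.0702) and was higher with the offsets (0.29; edgeR adjusted p = 0.000729). PSMG1 had 0.00585, and its value lay between -0.05 and 0.04 as single libraries were left out. With the offsets PSMG1 was lower (-0.26; edgeR adjusted p = 0.00226). PSMG2 stood at 0.937, 0.455 and 0.961 CPM and at 0.638, 0.739 and 0.678 CPM, with overlap. Its summed counts were 75 and 71 (ratio 0.921, exact 95% interval 0.656 to 1.29, for counting error only).

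Subunits are known to be built into each particle in fixed copy numbers, while their mRNA levels per kilobase of the principal transcript spread widely in UNC2400. Most constitutive alpha and beta genes lay between 53.6 CPM per kb (PSMA4) and 294.7 CPM per kb (PSMB4), and PSMA2 (12.97) and PSMA6 (4.23) were below. The inducible PSMB8, PSMB9 and PSMB10 were at 5.81, 2.77 and 0.448 CPM per kb. PSME3 was at 347 CPM per kb, above all core genes. These values depend on the transcript taken as principal, since counts are for the whole gene. That of PSME3 has 998 bases, while its joined exons cover 5152, and that of PSMA4 has 4411. PSMD9 and PSMG2 were at 2.34 and 0.465 CPM per kb.

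**Figure D4:**
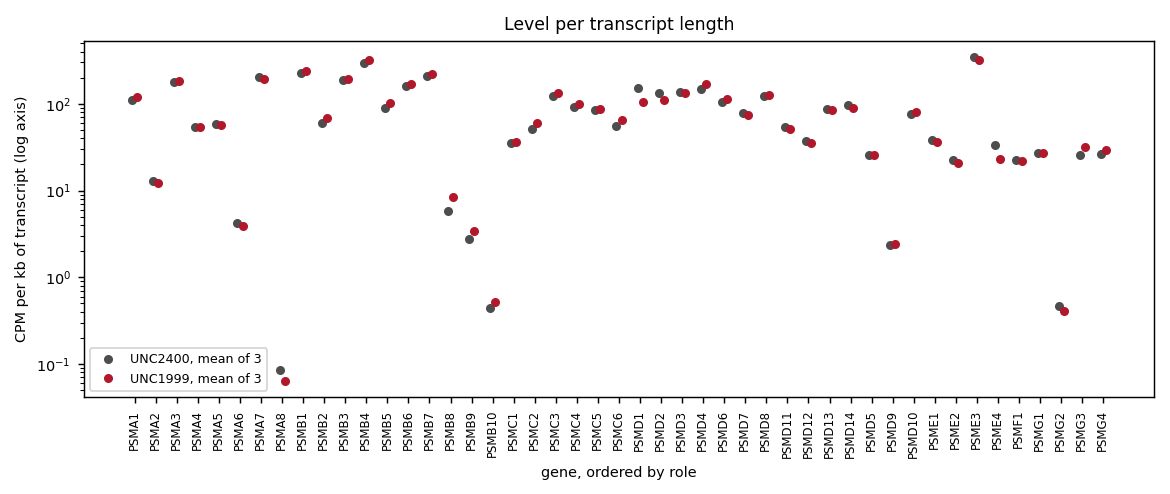
Mean level per kilobase of the principal transcript (log axis, CPM per kb) of each proteasome gene in UNC2400 and UNC1999 (means, n = 3); PSMB11, with no counts, is left out. The inducible beta genes lie far below the constitutive ones, and PSMA2, PSMA6, PSMA8, PSMD9 and PSMG2 also lie low.

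Some of these low levels concern genes whose exons other genes share. In GENCODE 29, another gene on the same strand covers 81.0% of the principal transcript of PSMA6, 53.2% of PSMA1, 52.5% of PSMA2, 45.3% of PSMB10 and 43.8% of PSMD9. On the opposite strand, NRDE2 covers 82.1% of PSMC1, and other genes cover 50.4% of PSMD7, 27.2% of PSMC5 and 17.3% of PSMG2. The same-strand genes over PSMA1 (AC018523.2) and PSMA2 (AC010132.3) are not among the counted genes by those names. Other names for them were not searched. PSMC1 also has 13 named pseudogenes. How reads in shared exons, with several matches or on either strand were counted is not given in the sources used here, so the levels of these genes are uncertain.

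Gene length moved with the fold changes. Genes with a span under 10 kb had a median log2 fold change of 0.20, those of 10 to 50 kb 0.05 and those over 50 kb -0.19. Of the 14 members under 10 kb, 3 were higher and 0 lower, against 42.1% and 9.17% of genes of that class. Of the 24 members of 10 to 50 kb, 5 were higher and 2 lower, against 31.7% and 21.9%. Of the 8 members over 50 kb, 0 were higher and 2 lower (PSMD1, 116 kb, and PSME4, 107 kb), against 14.3% and 46.4%. Across the 46 members, Spearman's rho between log2 fold change and span was -0.26, and across 14812 genes it was -0.39. With the offsets it was 0.30 across the members and 0.00295 across the genes. All of these genes share the same 6 libraries, and genes are not independent replicates.

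With the offsets, 6 of the 12 calls held in the same direction: PSMB2, PSMC6, PSMD1, PSMD2, PSME3 and PSME4. PSMD1 had -0.41 and PSME4 -0.40 in that fit, and PSMD2, with a span of 10.3 kb, had -0.44. PSMB5 (0.05), PSMB8 (0.23), PSMC2 (0.11) and PSMG3 (0.07) no longer passed, nor did PSMC3 (-0.07) and PSMD4 (-0.01), whose values were below 0.

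**Figure D5:**
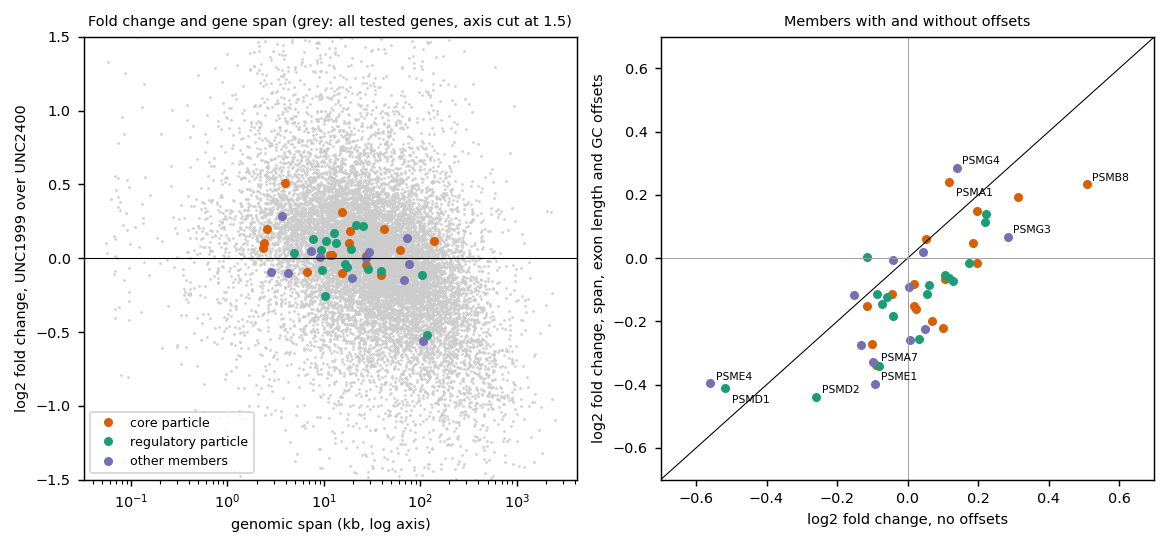
Log2 fold change against genomic span (log axis, kb) for the proteasome genes (coloured) over tested genes with a known span (grey, those within the plotted range), and, beside it, the members' log2 fold change fitted with the offsets against that without them (the line marks equal values). PSMD2 (-0.44), PSMD1 (-0.41) and PSME4 (-0.40) are among the lowest members in the fit with offsets.

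In the authors' deposited table of the same comparison, 47 of the genes are listed, 7 of them higher and 4 lower at an adjusted p under 0.05. The sign was the same as in the edgeR fit for 44 of 46 genes. The calls were the same for 11 genes, and PSMC3 was called in the edgeR fit but has an adjusted p of 0.0986 in the authors' deposited table.

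Other genes of the pathway were taken from lists of names. Their shares stand beside the 26.8% higher and 25.9% lower of all tested genes. Of 11 further subunits and cofactors, 4 were higher and 4 lower (36.4% each), or 2 and 5 with the offsets. KIAA0368 (ECPAS, a proteasome adaptor and scaffold) fell by 0.71 ± 0.08 on the log2 scale, from 437 ± 11.1 CPM to 266 ± 41.6 CPM (SD, n = 3 each; edgeR adjusted p = 1.49e-06). UBE3C, a ubiquitin ligase found on the proteasome, fell by 0.37 ± 0.05 (-0.19 with the offsets). The proteasome-bound deubiquitinases UCHL5 and USP14 fell by 0.25 ± 0.06 and 0.20 ± 0.05. The higher genes were SHFM1 (SEM1, a small subunit of the lid), POMP (the maturation factor of the core particle), ZFAND5 and AKIRIN2, with log2 fold changes of 0.16, 0.17, 0.15 and 0.13. With the offsets POMP (0.05), ZFAND5 (-0.01) and AKIRIN2 (0.07) no longer passed. SHFM1 and KIAA0368 are counted among the 2 and 5 of that fit. Neither had matched gene properties, so neither got an offset and their values were not adjusted. Of the 3 that did not pass, ADRM1, a ubiquitin receptor, had 0.00511 and PAAF1 had 0.17. With the offsets ADRM1 was lower (-0.13; edgeR adjusted p = 0.0492) and PAAF1 higher (0.20; edgeR adjusted p = 0.0372).

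Of 6 ubiquitin genes and E1 enzymes, 3 were higher and 2 lower (50% and 33.3%), or 0 and 3 with the offsets. Both E1 enzymes, which charge ubiquitin, were lower: UBA1 fell by 0.85 ± 0.07, from 839.7 ± 18.4 CPM to 467 ± 52.9 CPM (SD, n = 3 each; edgeR adjusted p = 5.90e-08), and UBA6 by 0.50 ± 0.06. RPS27A, which encodes ubiquitin fused to a ribosomal protein, rose by 0.30 ± 0.06 but had -0.03 with the offsets. Ubiquitin genes have near-identical copies, so their counts are uncertain. Of 9 shuttle and extraction factors, 2 were higher and 4 lower (22.2% and 44.4%), and the offsets gave the same numbers. FAF1 fell by 0.85 ± 0.09 (-0.39 with the offsets) and VCP, the segregase that pulls substrates out of complexes, fell by 0.35 ± 0.06. UBQLN4, which carries substrates to the proteasome, rose by 0.25 ± 0.05 (0.16 with the offsets).

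Of 14 genes of the NFE2L1 and NFE2L2 axis, 4 were higher and 3 lower (28.6% and 21.4%), or 4 and 4 with the offsets. NFE2L2 rose by 0.37 ± 0.06 (edgeR adjusted p = 0.000144) and its partner MAFG by 0.29 ± 0.06. With the offsets MAFG no longer passed (0.13; edgeR adjusted p = 0.0738). HMOX1, a target of NFE2L2, fell by 0.35 ± 0.07, and NGLY1, the glycanase that processes NFE2L1, fell by 0.24 ± 0.06. NFE2L1 itself had -0.12 ± 0.05 (edgeR adjusted p = 0.0583), and was lower with the offsets (-0.25; edgeR adjusted p = 0.00121). Of 16 interferon and antigen presentation genes, 6 were higher and 1 lower (37.5% and 6.25%), or 5 and 3 with the offsets. IFIT1 rose from 1.81 ± 0.209 CPM to 6.04 ± 1.75 CPM (SD, n = 3 each), or 1.72 ± 0.20 on the log2 scale (edgeR adjusted p = 2.32e-06). ISG15 rose by 0.95 ± 0.14, HLA-E by 0.83 ± 0.06 and B2M by 0.28 ± 0.05. With the offsets B2M no longer passed (0.03; edgeR adjusted p = 0.688). HLA genes are alike in sequence, so the counts of HLA-E are uncertain. TAP1, the peptide transporter whose gene neighbours PSMB9, rose by 0.50 ± 0.09 (edgeR adjusted p = 0.000266; 0.33 with the offsets), and was named after its value was seen.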

How the data were processed

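The deposited counts of 6 RNA-seq libraries, whole numbers per gene name that the authors had not normalized, were analysed. Their label says that duplicates were removed, without saying duplicates of what. Any effect of that step on the values was not tested. Per the submitters' processing notes, the tools were Trim Galore 0.4.0, Subread 1.5.0, featureCounts and TopHat2 2.0.13, and the build was hg19. The table of the authors' own comparison has log2 fold changes and p-values, per the file headers. Their batch-corrected log2 table was not used here.

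Counts were tested by quasi-likelihood in edgeR 4.0.16 (R 4.3.3) with group as the only term, TMM scaling and edgeR's default filter on low counts. Tests were two-sided, and p-values were adjusted by Benjamini-Hochberg over 17596 genes. Log2 fold changes are UNC1999 minus UNC2400, ± SE. CPM are TMM-scaled. Library totals overlapped (p = 1 by an exact permutation test, two-sided, whose smallest p is 0.1). The scripts were tested on simulated data. Alternatives were DESeq2 1.42.0, limma-voom (limma 3.58.1), RLE or upper-quartile scaling, other low-count filters, a replicate block, leaving out each library, and offsets from a spline (4 degrees of freedom each) on span, exon length and GC content. These gene properties came from GENCODE release 29 (GRCh38, not hg19) and were matched by name. They were found for 84.2% of tested genes, 89.0% of genes past the threshold and all tested members. Genes without them got no offset. Promoters were matched by symbol to RefSeq, GRCh38.p14.

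Members and lists were chosen with earlier results of these data known. All members are counted by role. Values in every library are given for the 3 largest rises and falls past the threshold, the 6 catalytic subunits and members under 1 CPM. Up to 4 genes with the smallest p are named per pathway list. Some genes that the rule takes in the pathway lists are left out of the text.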

Additional observations from a re-analysis of the deposited data

How the results depend on the processing

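Of the 12 calls, those of PSMD1, PSMD2, PSME4 and PSMC6 held in all 14 alternatives. Leaving out single libraries gave 4 to 8 higher and 3 to 8 lower members, the lowest count of higher members without UNC1999 replicate 3 and the highest count of lower members without UNC1999 replicate 1. Without UNC1999 replicate 3, PSMB2 (edgeR adjusted p = 0.0509), PSMB5 (0.0905) and PSMD4 (0.112) no longer passed. Over the same fits the core median ran from 0.03 to 0.08 and the regulatory median from -0.00532 to 0.0597, reaching -0.00219 without UNC1999 replicate 1. Upper-quartile scaling gave 14 higher members. The offsets left 4 members higher and 18 lower, with medians of -0.0810 (core) and -0.114 (regulatory particle). Without PSMD1 and PSMD2, chosen after seeing their values, the difference of the core to regulatory ratio was 0.0125. The causes were not tested.

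Under the offsets these values changed sign: PSMA3 (-0.0810), PSMA4 (-0.16), PSMB1 (-0.0673), PSMB3 (-0.15), PSMB4 (-0.22), PSMB6 (-0.20), PSMB10 (-0.0139), PSMC1 (-0.0845), PSMC3 (-0.0710), PSMC4 (-0.0627), PSMC5 (-0.26), PSMD4 (-0.0144), PSMD5 (-0.0917), PSMD6 (-0.0532), PSMD8 (-0.11), PSMD10 (-0.22), PSMD14 (0.00229) and PSMG1 (-0.26). PSMD5 and PSMG1 also did so under RLE scaling (-0.00715 and -0.00508), DESeq2 (-0.00714 and -0.00473) and no low-count filter (-0.0130 and -0.0112). As single libraries were left out, values crossed 0 for PSMA3 (-0.0362 to 0.0610), PSMA4 (-0.0187 to 0.0461), PSMA5 (-0.0940 to 0.00656), PSMA6 (-0.211 to 0.0368), PSMB3 (-0.0240 to 0.0519), PSMB10 (-0.0615 to 0.430), PSMC5 (-0.00532 to 0.0597), PSMD5 (-0.0394 to 0.0374), PSMD9 (-0.00739 to 0.0885), PSMD10 (-0.000692 to 0.0784), PSMG1 (-0.0545 to 0.0425) and PSMG2 (-0.471 to 0.0299). Of the genes named here, PSMC3 and PSMD4 had passed without the offsets. In the fit with the offsets PSMA4, PSMB3, PSMB4, PSMB6, PSMC5, PSMD10 and PSMG1 passed as lower.

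Same-numbered libraries deviated together by r = 0.0237, 0.0839 and 0.124 across genes, and differently numbered ones by -0.136 to 0.0618. The main fit did not take the numbers as pairs. Yet the number of detected genes was alike by replicate number. With UNC2400 and UNC1999 it was 26918 and 26865 in replicate 1, and 29385 and 29527 in replicate 2. In replicate 3 it was 26413 and 26730. Whether same-numbered libraries shared a batch was not tested. UNC2400 replicate 1 correlated best with UNC1999 replicate 2 (0.0618). The replicate block gave 4867 higher and 4695 lower genes, and 10 higher and 4 lower members.

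Depth limits PSMA8, PSMB10, PSMB11 and PSMG2, all under 1 CPM.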
